A study of Mus musculus with 4 samples.

Results

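The genes described here are 10 markers of tuft cells, rare sensory cells of the gut, stomach and airway lining that carry a brush of stiff microvilli. They are the kinase Dclk1, the cation channel Trpm5, the taste G protein subunit Gnat3, the transcription factors Pou2f3 and Gfi1b, the cytokine Il25, the eicosanoid enzymes and cofactor Alox5, Alox5ap and Hpgds, and the acetylcholine synthase Chat. Members were all gene probes whose accession maps to one of these 10 mouse symbols. This gave 15 probes for 9 genes, out of 41160 gene probes with a value on every array. Gnat3 matched no probe and is not analysed here. A gene was tested where both arrays of one or the other group had it well above background. This held for 8 of the 9, all but Hpgds, and for 21045 genes in all. Of these, 13412 have a gene symbol, and each accession without a symbol is counted as a gene of its own.

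RNA was measured on 4 one-colour oligonucleotide arrays, 2 of CD44+ and 2 of CD44- cells, both negative for lineage markers (Lin-) and sorted from glandular stomach tumours. All mice were 30 weeks old and carried the K19-Wnt1/C2mE transgenes in both groups. In these, the keratin 19 promoter drives Wnt1, cyclooxygenase-2 (Ptgs2) and the prostaglandin E synthase Ptges in gastric epithelium. CD44 is a surface receptor for hyaluronan, and the comparison asks which transcripts differ between tumour cells with and without it. The sources used here name neither the lineage markers stained nor the number of mice behind each sample. The 4 samples are called CD44+ 1, CD44+ 2, CD44- 1 and CD44- 2.

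Tuft cells sense their surroundings through the pathway that taste cells use. A receptor acts through a G protein and phospholipase C to release calcium, which opens Trpm5. The transcription factor Pou2f3 is needed for their formation in the mouse. Active tuft cells release interleukin-25, which drives type 2 immunity, as well as cysteinyl leukotrienes, prostaglandin D2 and acetylcholine, which act on immune cells, epithelium and nerves.

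Promoter windows are shown for 5 members, each from 250 bases before to 50 bases after the gene's start, from RefSeq (GRCm38.p6), 5′ to 3′ on the gene's own strand. Trpm5, Alox5 and Gfi1b are shown because their signals ordered the 4 arrays alike below. Dclk1 had that order too, but its 2 windows are not shown. Hpgds and Chat are shown because they hold the letters of the octamer, the motif that POU factors such as Pou2f3 bind. Capitals mark the octamer ATGCAAAT or its 7-base core TGCAAAT.
Trpm5, chr7:143094593-143094892, minus strand: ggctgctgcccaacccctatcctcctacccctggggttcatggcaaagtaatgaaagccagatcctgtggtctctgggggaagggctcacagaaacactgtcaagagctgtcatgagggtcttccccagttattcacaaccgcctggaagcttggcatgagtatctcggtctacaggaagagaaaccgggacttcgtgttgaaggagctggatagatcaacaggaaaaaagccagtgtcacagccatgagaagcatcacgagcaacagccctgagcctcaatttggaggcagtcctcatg
Alox5, chr6:116461129-116461428, minus strand: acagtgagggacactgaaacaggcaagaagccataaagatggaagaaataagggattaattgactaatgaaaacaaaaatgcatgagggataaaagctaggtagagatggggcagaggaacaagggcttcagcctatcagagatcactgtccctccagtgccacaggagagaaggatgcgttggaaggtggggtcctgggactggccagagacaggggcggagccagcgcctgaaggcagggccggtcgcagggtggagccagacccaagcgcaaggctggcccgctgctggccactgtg
Gfi1b, chr2:28621933-28622232, minus strand: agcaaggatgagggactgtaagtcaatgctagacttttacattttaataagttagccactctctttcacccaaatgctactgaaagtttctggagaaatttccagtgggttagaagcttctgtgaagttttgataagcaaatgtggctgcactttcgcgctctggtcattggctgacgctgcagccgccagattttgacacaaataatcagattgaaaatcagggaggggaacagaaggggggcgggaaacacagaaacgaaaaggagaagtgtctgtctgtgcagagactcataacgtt
Hpgds, chr6:65144681-65144980, minus strand: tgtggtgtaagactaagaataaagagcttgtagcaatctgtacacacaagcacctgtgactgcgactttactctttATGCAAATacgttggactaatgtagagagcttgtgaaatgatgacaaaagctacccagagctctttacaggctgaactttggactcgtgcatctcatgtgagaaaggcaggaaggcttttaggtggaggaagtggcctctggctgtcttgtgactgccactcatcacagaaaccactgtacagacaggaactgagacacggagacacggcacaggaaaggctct
Chat, chr14:32465860-32466159, minus strand: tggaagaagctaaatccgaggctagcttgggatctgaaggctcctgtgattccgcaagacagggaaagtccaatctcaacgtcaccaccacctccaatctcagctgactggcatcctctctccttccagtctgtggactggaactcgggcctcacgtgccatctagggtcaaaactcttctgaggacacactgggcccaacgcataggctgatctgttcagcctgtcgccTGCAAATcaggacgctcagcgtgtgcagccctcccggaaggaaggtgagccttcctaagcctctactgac
The table held windows for 7 of the 10 members, 8 windows in all, since Dclk1 has 2 starts. On either strand, ATGCAAAT or its reverse complement ATTTGCAT stood in 1 of these 8 windows, that of Hpgds from position -174, against 570 of all 32851 windows (1.74%). The core, which every octamer also holds, stood in 2 of the 8, those of Hpgds from position -173 and of Chat from position -20, against 1321 of all windows (4.02%). The other windows shown, of Trpm5, Alox5 and Gfi1b, do not hold these letters. A match of letters is a description and not a binding site.

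Values are log2 ratios of the scanner's processed signal to the 75th percentile of its array, so 0 is the level of that percentile, and differences are CD44+ minus CD44-. The 75th percentile was 244 and 493 on CD44+ 1 and CD44+ 2, and 407 and 527 on CD44- 1 and CD44- 2. Well above background were 53.1% and 65.6% of gene spots for CD44+ cells, against 66.6% and 69.6% for CD44- cells, and no spot was saturated. CD44+ 1 was thus the dimmest array. The sort marker Cd44 stood at 6.31 and 6.54 in CD44+ cells, against 4.26 and 5.10 in CD44- cells, a difference of 1.74 ± 0.49 (SE, 2 arrays per group). Its adjusted p was 0.200 by limma with Benjamini-Hochberg adjustment over all genes, the test used throughout. The labels do not say whether replicates are separate mice. The p-values therefore cover the spread between these samples alone, which may be technical, and the small number of arrays limits precision. In sorted bulk samples fewer tuft cells and less RNA per tuft cell cannot be told apart.

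Most tuft cell genes gave less signal in CD44+ cells. Among the 8 tested, the cytokine gene Il25 fell at an adjusted p under 0.05 and was at least 2.77-fold lower. Dclk1, Alox5, Alox5ap, Trpm5 and Gfi1b had signals 2.96- to 6.60-fold lower without overlap of the groups, and none of these 5 passed the test. Pou2f3 and Chat lay on the other side of 0 and did not pass either. Over all genes 84 were called (0.399%), 5 higher and 79 lower (0.375%), or 121 higher and 628 lower (2.98%) with the arrays scaled by their medians instead. With that scaling Dclk1, Il25, Alox5ap and Alox5 were called. The count of 1 call among 8 stands beside these shares. Il25 passed the filter through CD44- cells alone, which favours a lower value in CD44+ cells, so its call is no independent evidence. At an unadjusted p under 0.05, 6 of the 8 were lower, beside 7.89% of all genes, and 0 were higher, beside 2.86%. Groups did not overlap, with lower signal in CD44+ cells, for the same 6, beside 17.2% of all genes, and with higher signal for Pou2f3, beside 22.4%. The median difference of the 8 was -1.98, or -1.64 with Il25 at its lower limit, beside 0.16 for all genes. Probe by probe, groups did not overlap, with lower signal in CD44+ cells, for 11 of the 13 members' probes that passed the filter, beside 17.3% of all such probes, and probes of one gene share its RNA. These counts and medians describe the members that passed the filter and are no test of the list.

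**Figure D1:**
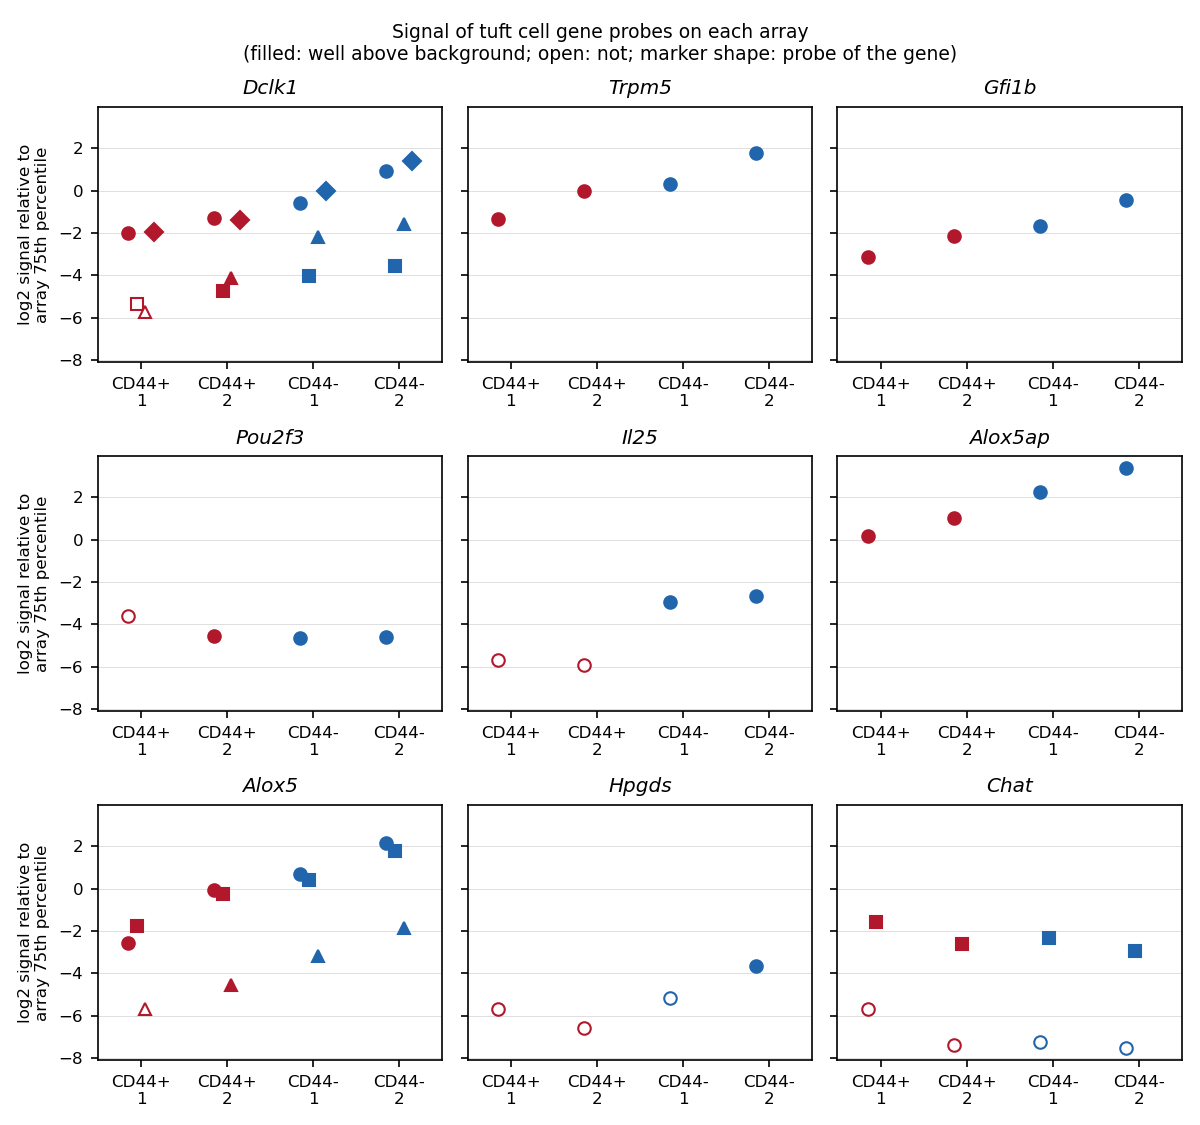
Signal of each tuft cell gene probe on the 4 arrays, in log2 units relative to the array's 75th percentile, with CD44+ arrays in red left of CD44- arrays in blue. Marker shapes are probes of a gene and open markers were not well above background. Dclk1, Trpm5, Gfi1b, Alox5ap and Alox5 climb across the 4 arrays as drawn, Il25 stands between -2.95 and -2.65 on the CD44- arrays alone, and Pou2f3 and Chat show no such step.

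Dclk1 encodes a kinase that binds microtubules and is the most used marker of tuft cells in mouse stomach. Its brightest probe gave a processed signal of 63.6 and 186 in CD44+ cells, against 402 and 1397 in CD44- cells, or -1.94 and -1.41 against -0.02 and 1.41 on the log2 scale. Both CD44+ arrays lay below both CD44- arrays, and the gap between the groups, 1.39, was about as wide as the gap of 1.42 between the CD44- arrays. The difference was -2.37 ± 0.58 (SE, 2 arrays per group), 5.16-fold lower, with an adjusted p of 0.156 by limma. The 3 other Dclk1 probes differed by -1.81, -1.24 and -3.03, and their groups did not overlap either. The probes at -1.24 and -3.03 passed the background flag on CD44+ 2 and not on CD44+ 1.

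Trpm5 is the calcium-activated cation channel that ends the taste-type cascade by depolarising the cell. Its signal was 95.2 and 486 in CD44+ cells, against 500 and 1793 in CD44- cells, which is -1.36 and -0.02 against 0.30 and 1.77 on the log2 scale. The groups were separated by only 0.32, less than the gap of 1.34 between the CD44+ arrays and of 1.47 between the CD44- arrays. The difference of -1.72 ± 0.66 (SE), 3.30-fold lower, had an adjusted p of 0.374 by limma.

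Of 11 genes chosen as the rest of this taste-type cascade, 10 had a probe and were tested, and 0 were called. At an unadjusted p under 0.05, 2 were lower and 1 was higher, and the median difference was -0.07. Gng13, the G protein gamma subunit that partners gustducin, stood at -1.90 and -0.28 in CD44+ cells, against 0.71 and 1.48 in CD44- cells. It differed by -2.18 ± 0.62 (adjusted p = 0.210, limma), in the same direction as Trpm5 and with the same order of arrays. Itpr2, a calcium release channel of the endoplasmic reticulum, differed by -2.34 ± 0.53 (adjusted p = 0.133, limma). Sucnr1, the succinate receptor through which small intestinal tuft cells of the mouse sense microbes, differed by 1.58 ± 0.51 (adjusted p = 0.275, limma), and the sweet and umami taste receptor subunit Tas1r3 by 0.81 ± 0.50. Plcb2, the phospholipase of the pathway, overlapped between groups at -0.26 ± 0.53, and its 3 probes were dim on all arrays, between 2.73 and 56.1 in processed signal. The tested members of the cascade therefore lay on both sides of 0.

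The transcription factor genes did not move together. Pou2f3 gave a processed signal of 19.8 and 21.3 in CD44+ cells, against 16.3 and 21.6 in CD44- cells, and was well above background on every array except CD44+ 1. The unscaled signals of the 4 arrays were nearly alike, whereas on the log2 scale CD44+ 1 stood at -3.62 and the others between -4.64 and -4.53. The difference of 0.55 ± 0.49 had an adjusted p of 0.792 by limma, and without CD44+ 1 it was 0.09. Gfi1b, a zinc finger repressor of blood progenitors that tuft cells of the mouse gut also express, had 27.9 and 111 in CD44+ cells, against 127 and 382 in CD44- cells. On the log2 scale it stood at -3.13 and -2.15 against -1.68 and -0.46. The difference was -1.56 ± 0.58 (SE), 2.96-fold lower, with an adjusted p of 0.357 by limma and a gap between groups of 0.47. Since Gfi1b is also a gene of red cell and platelet precursors, a list of 10 such genes was read beside it. Of the 6 tested, 0 were called, 1 was higher at an unadjusted p under 0.05 and 2 lay below 0, and the summed signal of the 6, relative to the 75th percentile, was 2.66 and 4.41 in CD44+ cells, against 0.88 and 1.51 in CD44- cells. Most of that sum is the platelet gene Pf4, and without it the sums were 0.84 and 0.58 in CD44+ cells, against 0.58 and 0.69 in CD44- cells, with no direction. Their defining members Klf1 and Itga2b were not well above background on any array. The part of blood precursors in the level of Gfi1b was not tested.

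Il25 encodes the cytokine by which tuft cells call on group 2 innate lymphoid cells. Its signal was 4.77 and 8.08 in CD44+ cells, not well above background on either array, against 52.7 and 83.8 in CD44- cells, well above background on both. On the log2 scale the means were -5.80 ± 0.18 in CD44+ cells and -2.80 ± 0.21 in CD44- cells (SD, n = 2 arrays each). The groups were 2.73 apart and the arrays within a group lay within 0.29. The difference of -3.00 ± 0.44 (SE) had an adjusted p of 0.0431 by limma. As the CD44+ level is only a bound, the fold is at least 2.77-fold lower, with each CD44+ array set at its own signal or at its dimmest probe well above background, whichever was higher. The call was lost without CD44+ 1 (-3.13, adjusted p = 0.244) and without CD44+ 2 (-2.88, adjusted p = 0.221). Over the 12 alternatives that tested it, Il25 was called in 7, with adjusted p values from 2.94e-07 to 0.993.

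Il25 was set beside 10 genes of the IL-25 and type 2 circuit, of which 7 were tested and 0 called, and at an unadjusted p under 0.05 there was 1 on either side, Il33 and Tslp. Il33, an alarmin of epithelial and stromal cells, stood at 4.98 and 5.02 in CD44+ cells, against 2.05 and 2.40 in CD44- cells, a difference of 2.77 ± 0.44 (adjusted p = 0.0556, limma) opposite to that of Il25. Tslp, another alarmin of barrier tissue, was not well above background in CD44+ cells and stood at -1.84 and -3.15 in CD44- cells. It was at least 3.42-fold lower, with a fitted difference of -3.18 ± 0.54 (adjusted p = 0.0703, limma). Il13ra1, a chain of the receptor for interleukin-13, differed by 0.69 ± 0.44, and Il17ra, a chain of the receptor for IL-25, by -0.67 ± 0.48. Il17ra was well above background on only 1 of the CD44+ arrays. Its partner chain Il17rb and the lymphoid cytokine Il5 were not well above background on any array. The alarmins thus lay on both sides, and no receptor gene of the circuit passed the test.

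Alox5ap and Alox5 act together, since the protein of Alox5ap hands arachidonic acid to the 5-lipoxygenase of Alox5, which makes the precursor of all leukotrienes. Alox5ap had a processed signal of 272 and 987 in CD44+ cells, against 1938 and 5533 in CD44- cells, or 0.16 and 1.00 against 2.25 and 3.39 on the log2 scale. The groups were 1.25 apart, more than the gaps of 0.84 and 1.14 within the CD44+ and the CD44- group. The difference was -2.24 ± 0.56 (SE), 4.73-fold lower, with an adjusted p of 0.163 by limma. Alox5 had 41.3 and 477 in CD44+ cells, against 655 and 2330 in CD44- cells, or -2.56 and -0.05 against 0.69 and 2.14. CD44+ 1 lay 2.51 below CD44+ 2, a wider gap than the 0.74 between the groups. The difference was -2.72 ± 0.85 (SE), 6.60-fold lower, with an adjusted p of 0.249 by limma. The 2 other probes of Alox5 differed by -2.07 and -2.60 without overlap. The probe at -2.60 passed the background flag on CD44+ 2 and not on CD44+ 1.

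Hpgds encodes the synthase of prostaglandin D2 found in tuft cells and mast cells. Its probe gave 4.81 and 5.21 in CD44+ cells, against 11.6 and 42.0 in CD44- cells, and was well above background on CD44- 2 alone. It was therefore not tested, and no fold is given.

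The rest of eicosanoid synthesis was read from 10 genes, 8 of them tested and 0 called, with a median difference of -0.16. Ptgs1, the constitutive cyclooxygenase that tuft cells carry, stood at -2.84 and -0.27 in CD44+ cells, against 0.47 and 2.71 in CD44- cells. It differed by -3.14 ± 0.96, 8.85-fold lower (adjusted p = 0.239, limma), with no overlap of the groups. Ltc4s, which makes leukotriene C4, stood at -0.17 and 0.55 against 1.45 and 1.79, a difference of -1.43 ± 0.48, 2.69-fold lower (adjusted p = 0.291, limma). Ptgs2, the inducible cyclooxygenase, differed by -4.09 ± 0.89 (adjusted p = 0.124, limma) and reached well above background on only one of the CD44+ arrays. Ptgs2 is also a transgene here, and whether its probes read the transgene is not known. Lta4h, which makes leukotriene B4 instead, differed by 0.69 ± 0.45. At an unadjusted p under 0.05 these 3 lower genes were the only ones of the 8.

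Chat makes acetylcholine, which tuft cells of the mouse airway and gut release. Its brighter probe had a processed signal of 81.5 and 80.3 in CD44+ cells, against 81.7 and 69.6 in CD44- cells, or -1.58 and -2.62 against -2.32 and -2.92 on the log2 scale. The groups overlapped, and the difference of 0.52 ± 0.53 had an adjusted p of 0.808 by limma. The second Chat probe was not well above background on any array. Of 7 further genes of acetylcholine handling, 3 were tested and 0 were called, also at an unadjusted p under 0.05. The choline transporter family member Slc44a4 differed by 0.59 ± 0.64, acetylcholinesterase (Ache) by 0.14 ± 0.47 and butyrylcholinesterase (Bche) by -0.10 ± 0.48. The neuronal choline transporter Slc5a7 and the muscarinic receptor Chrm1 were not well above background on any array. The groups overlapped for each of these 3 genes, as they did for Chat.

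A last related list held 20 genes of tuft cell structure and regulation, of which 16 were tested and 1 was called. Of the 16, 8 lay above 0 and 8 below, and at an unadjusted p under 0.05, 6 were lower and 1 was higher. The median difference was -0.24, or 0.03 with Siglecf left out. Siglecf, a sialic acid receptor of eosinophils that intestinal tuft cells of the mouse also carry, fell and was at least 4.20-fold lower (adjusted p = 0.0244, limma). It stood at -5.64 and -5.65 in CD44+ cells, not well above background, against -2.26 and -2.14 in CD44- cells. Like Il25, it passed the filter through CD44- cells alone, which favours a lower value in CD44+ cells, so its call is no independent evidence. Its call was lost without CD44+ 1 and without CD44+ 2, where the fitted difference was -3.46 and -3.45, beside -3.45 with all arrays. The blood cell kinase Matk differed by -3.36 ± 0.56 (adjusted p = 0.0627, limma). Vav1, an exchange factor of blood cells, differed by -3.16 ± 0.62 (adjusted p = 0.106, limma). Its brightest probe was well above background on only 1 of the CD44+ arrays and passed the filter through CD44- cells alone. A second probe of Matk, dim on all arrays, differed by 0.34 with overlap. These 3 genes are known from leukocytes as well as tuft cells.

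**Figure D2:**
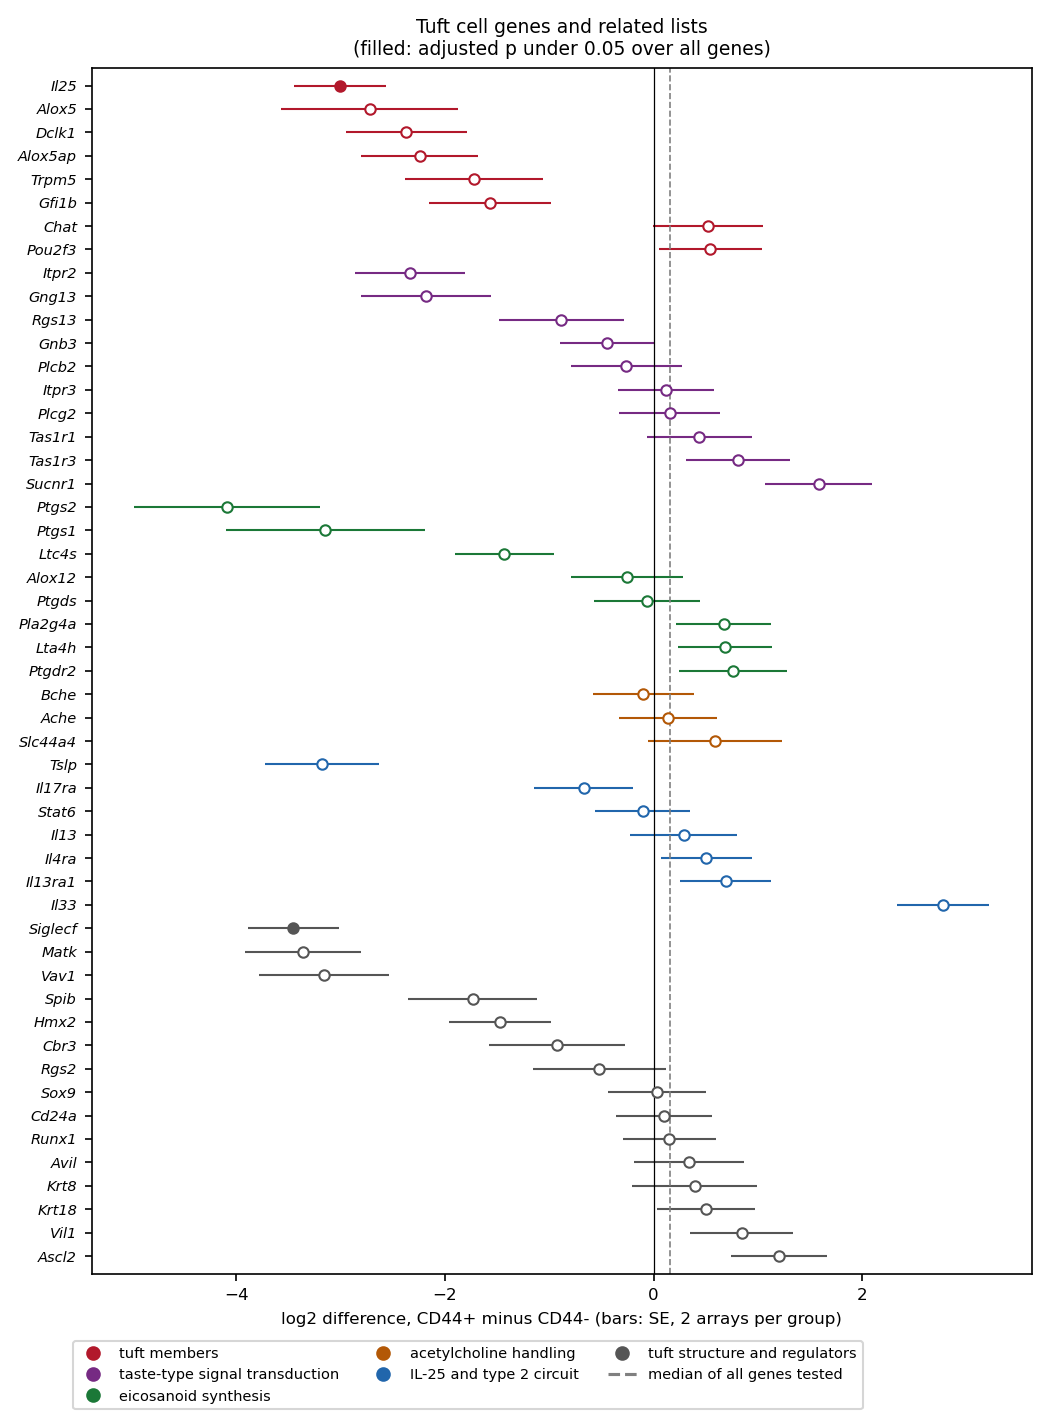
Fitted log2 difference, CD44+ minus CD44-, with its standard error for the tuft cell genes and genes of the 5 related lists, with 2 arrays per group. Filled points passed at an adjusted p under 0.05, and these are Il25 and Siglecf. The dashed line is the median of all genes, 0.16, and each related list has members on both sides of 0.

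The 4 arrays were not evenly spaced for these genes. For Dclk1, Trpm5, Gfi1b, Alox5ap and Alox5, the signal relative to the 75th percentile was lowest on CD44+ 1, higher on CD44+ 2, higher again on CD44- 1 and highest on CD44- 2. This order was found for 5 of the 8 members tested and for 8.79% of all genes. On CD44- 2 the signal was above that of CD44- 1 for 7 of the 8, against 41.2% of all genes, and by a median of 1.18. On CD44+ 2 it was above that of CD44+ 1 for 5 of the 8, against 52.7% of all genes. For Trpm5 the replicates lay 1.34 apart in CD44+ cells and 1.47 apart in CD44- cells, beside a group difference of -1.72. The same gaps were 0.98 and 1.22 for Gfi1b, beside -1.56. For Alox5 they were 2.51 and 1.46, beside -2.72, so only its CD44+ replicates were about as far apart as the groups.

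Each array was left out in turn to see how far single arrays set the values. Without CD44- 2, the differences of Dclk1, Trpm5, Gfi1b, Alox5ap and Alox5 were -1.66, -0.99, -0.96, -1.67 and -1.99, and without CD44- 1 they were -3.08, -2.45, -2.17, -2.81 and -3.45. Without CD44+ 1 they were -2.10, -1.05, -1.07, -1.82 and -1.47 in the same gene order, and without CD44+ 2 they were -2.63, -2.39, -2.05, -2.66 and -3.98. All 5 stayed below 0 in these 4 fits. The median over the 8 genes was -1.27 without CD44+ 1, -2.51 without CD44+ 2, -2.63 without CD44- 1 and -1.32 without CD44- 2. Each of these fits has a lone sample in 1 group, which is assumed to vary like the other group. The fitted difference of Il25 ran from -3.15 to -2.86, against CD44+ signals that are only a bound. Chat was at 0.00 without CD44+ 1 and at 1.04 without CD44+ 2.

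**Figure D3:**
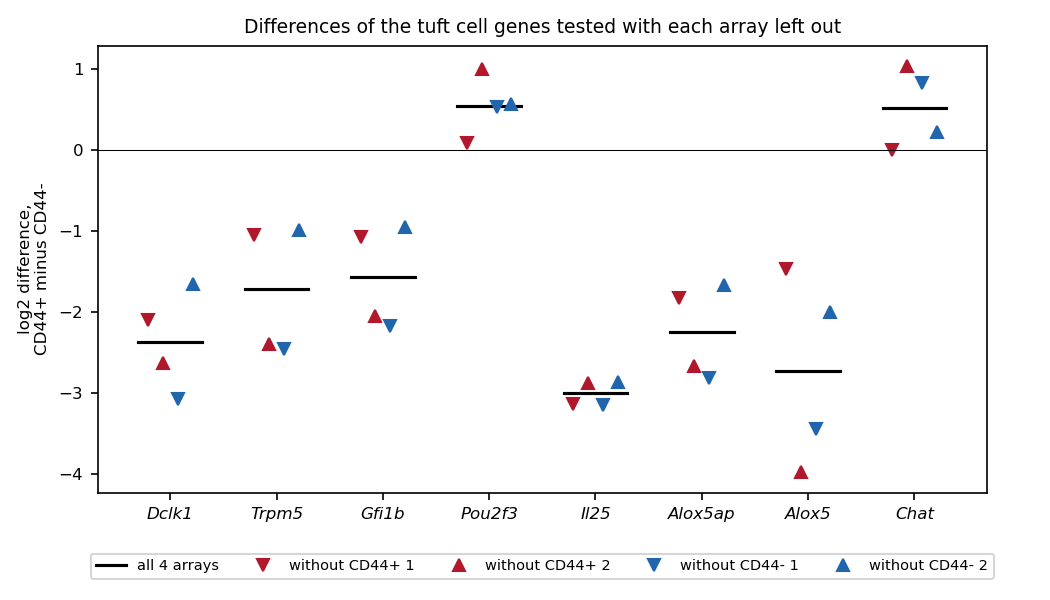
Log2 difference, CD44+ minus CD44-, of the 8 tuft cell genes tested, with all 4 arrays (bar) and in fits that leave one array out (triangles, red for a CD44+ array left out, blue for a CD44- array). Alox5 runs from -3.98 to -1.47. Il25 lies between -3.15 and -2.86, fitted against CD44+ signals not well above background.

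Markers of the other cell types that the sort could hold were read on the same arrays. The median signal of the tuft cell genes tested was -2.25 and -1.78 on the CD44+ arrays, against -0.85 and 0.47 on the CD44- arrays. The fibroblast list, 8 of 8 tested, had medians of -0.41 and 1.68 in CD44+ cells, against 2.52 and 5.10 in CD44- cells. Endothelial genes, 8 of 8 tested, had -3.01 and -1.96 against -0.13 and 3.48. Both stromal lists therefore followed the same order of arrays as Dclk1, Trpm5, Gfi1b, Alox5ap and Alox5. Their summed signals, relative to the 75th percentile, were 7.80 and 42.8 in CD44+ cells against 68.2 and 456 in CD44- cells for fibroblast genes, and 1.37 and 2.50 against 7.19 and 116 for endothelial genes. Of these 16 genes 0 were called and 15 lay below 0, and 7 in each list were lower at an unadjusted p under 0.05. Their part in the tuft cell result was not tested.

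Enteroendocrine genes, 10 of 10 tested, had medians of -2.42 and -3.16 in CD44+ cells, against 2.45 and 2.62 in CD44- cells, and 7 of them fell at an adjusted p under 0.05. Their summed signals were 3.99 and 5.38 in CD44+ cells, against 366 and 781 in CD44- cells. Chromogranin B (Chgb), of endocrine granules, differed by -8.06 ± 0.48 (adjusted p = 0.0018, limma). It was called in 12 of 13 alternatives, and its call was lost without CD44+ 2, where the difference was -8.15. The list medians of the CD44- arrays stood close together and apart from those of the CD44+ arrays. Gene by gene, 7 of the 10 were higher on CD44- 2 than on CD44- 1, and the median gap over the 10 genes was 0.66. Their part in the tuft cell result was not tested either.

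Alox5, Alox5ap, Ltc4s, Hpgds and Matk are also genes of leukocytes, so leukocyte markers were read beside them. Of 12 pan-leukocyte and macrophage genes, 9 were tested, 4 lay below 0, and at an unadjusted p under 0.05 there were 2 higher and 3 lower. The median difference was 0.33, or -0.16 with Cd53 left out, so its sign rests on that gene. Their summed signals were 62.6 and 61.2 in CD44+ cells, against 38.4 and 48.6 in CD44- cells. Most of that sum is Cd14, and without it the sums were 13.4 and 2.81 in CD44+ cells, against 19.3 and 23.3 in CD44- cells. Much of this remainder is Lyz2, at 3.52 and 0.49 against 4.16 and 4.46 on the log2 scale. The direction of the remainder rests on that gene and is not one of the list. The part of leukocytes in the tuft cell result was not tested. The macrophage markers Itgam and Adgre1 were not well above background on any array. Ptprc, the common leukocyte antigen, stood at -2.59 and -2.94 in CD44+ cells against -2.44 and -1.78 in CD44- cells with its brightest probe, a difference of -0.65 ± 0.47 (adjusted p = 0.765, limma), and its 2 other probes were not well above background anywhere. Cd53, a leukocyte tetraspanin, rose and was at least 9.06-fold higher in CD44+ cells (adjusted p = 0.0244, limma). Its call was lost without CD44+ 1 or CD44+ 2, where the fitted difference was 3.80 and 3.82, beside 3.81 with all arrays. Cd53 passed the filter through CD44+ cells alone, which favours a higher value there, so its call is no independent evidence. The myeloid genes Tyrobp (-1.74 ± 0.53) and Lyz2 (-2.30 ± 0.88) lay in the same direction as Alox5, and the myeloid receptor gene Cd14 (1.29 ± 0.45) in the other, and none of these 3 passed. Tyrobp was well above background on only 1 of the CD44+ arrays.

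Of 11 mast cell genes, 9 were tested, and their summed signals were 10.6 and 15.1 in CD44+ cells, against 4.91 and 11.1 in CD44- cells. Without the brightest, the protease gene Mcpt4, they were 5.80 and 6.99 against 3.42 and 9.44, with overlap of the groups. That overlap rests on Hdc, at 0.52 on CD44- 1 and 2.84 on CD44- 2 on the log2 scale. Of the 9 genes, 7 lay above 0 and 2 below. At an unadjusted p under 0.05, 4 were higher and 1, Hdc, was lower. The protease Mcpt1 rose, by 2.94 ± 0.45 (adjusted p = 0.0486, limma). Its call was lost without CD44+ 1 or CD44+ 2, where the difference was 3.16 and 2.71. The receptor Kit differed by 0.06, and Ms4a2 was not well above background on any array. Hdc, which makes histamine in mast cells and in gastric endocrine cells, differed by -4.83 ± 0.81 (adjusted p = 0.0643, limma). Hdc was well above background on only 1 of the CD44+ arrays and passed the filter through CD44- cells alone. Of 10 neuron genes 4 were tested and 0 called, with 2 lower at an unadjusted p under 0.05 and a median difference of -1.02. Their median levels were -3.38 and -3.42 in CD44+ cells, against -1.64 and -1.28 in CD44- cells, split by group as the tuft cell medians were. Uchl1, a ubiquitin hydrolase of neurons and endocrine cells, differed by -3.34 ± 0.69 (adjusted p = 0.113, limma), and the RNA-binding protein gene Elavl4 by -2.07 ± 0.49 (adjusted p = 0.144, limma). Elavl4 was well above background on only 1 of the CD44+ arrays. Snap25, Ret, Prph and Nefm were not well above background on any array, and the part of neuron genes was not tested. Epithelial genes, 6 of 6 tested, had medians of 7.78 and 7.57 in CD44+ cells, against 7.17 and 6.05 in CD44- cells, with Epcam 1.66 ± 0.46 apart (adjusted p = 0.200, limma). The epithelial medians were higher on both CD44+ arrays, opposite to those of the tuft cell genes.

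**Figure D4:**
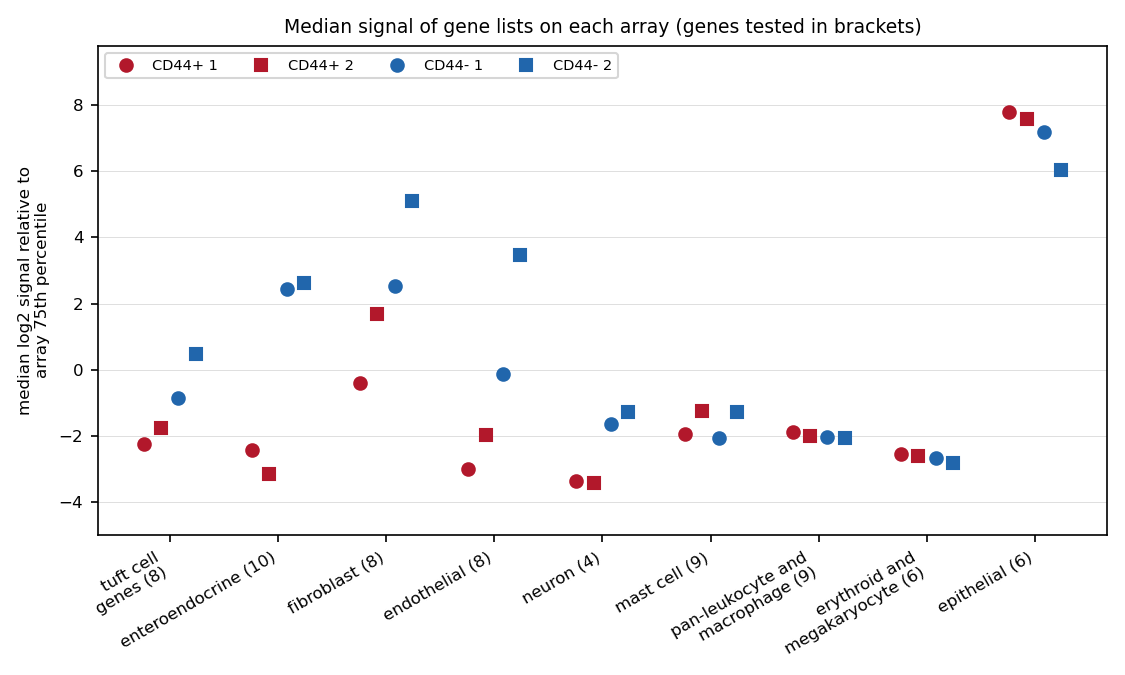
Median signal on each array of the tuft cell genes and of 8 marker lists, in log2 units relative to the array's 75th percentile, with the genes tested in brackets. CD44+ arrays (red) stand left of CD44- arrays (blue). The tuft cell, fibroblast and endothelial medians climb across the 4 arrays, the enteroendocrine and neuron medians are split by group, and the mast cell, leukocyte and red cell medians show no such step.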

How the data were processed

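Tumour cell RNA was amplified from a small input and labelled with Cy3, per the labels' protocols, so each of the 4 arrays holds 1 sample. The authors deposited a scanner table per array, written by Agilent Feature Extraction 10.1.1.1 per the file headers, while the submitters' processing notes name version 9.5. The processed signal is a background-subtracted intensity on a linear scale, per the file headers. The spot and background medians are intensity values, and the outlier, saturation and background flags are 0 or 1, per the file headers. The deposited value table, used as an alternative, holds a linear ratio of each probe to its median over the arrays, as read from its values, and the sources used here do not give how the authors scaled it.

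Control spots and outlier spots (109 to 133 per array) were left out, spots of a probe averaged, and log2 signals set relative to the array's 75th percentile. Accessions matched to RefSeq genes named 24375 of 41174 probes. Probes that both arrays of either group had well above background were kept, and the brightest probe stood for a gene. Groups came from the sample titles and were compared with limma 3.58.1 in R 4.3.3, without covariates, adjusted by Benjamini-Hochberg and called under 0.05. The fit was also run on simulated data with the same spread for every gene and independent arrays. This does not test it on data like these. The array design names another genome build, so no probe coordinates are given.

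The members and the 13 other gene lists were chosen with earlier results of these data known. All 10 members are named whatever their values. From each other list come its counts and up to 4 genes of smallest p, and Cd44, Ptprc, Kit, Epcam, Plcb2, Ltc4s and Ptgs1 are named whatever their values. Genes named only as not well above background were added after their values were seen. Not every gene of these lists is reported here.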

Additional observations from a re-analysis of the deposited data

How the results depend on the processing

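Every tuft cell gene tested kept its sign in all alternatives that gave it a value, and the counts of calls did not. With median scaling and with the authors' deposited values, 4 of the 8 genes were called, of 749 genes (121 higher, 628 lower) and 753 genes (121 higher, 632 lower) in all, against 1 of 84 (5 higher, 79 lower). Median scaling moved the median of all genes from 0.16 to 0.26. Quantile normalization called 0 tuft cell genes of 6 in all, and no filter on dim probes 0 of 24. The filter for probes well above background on all 4 arrays called 0, since Il25 was not among those tested. Normexp on the median spot signal, chosen after seeing the data because no mean spot signal is given, called 3 of 540, and put the tuft cell median at -1.13 and Il25 at -0.48 (adjusted p = 0.993, limma). Testing every probe and averaging probes left 1 tuft cell gene called. With 1 array left out, the tuft cell calls ran from 0 to 6, all calls from 2 to 1564, and the tuft cell median from -2.63 to -1.27. The cause of these shifts was not tested. With the replicate block 6 tuft cell genes were called, of 1829 in all, while the median stayed at -1.98. Same-numbered samples deviated together at r = 0.347 over 21045 genes, but the labels state no pairing and there are only 2 pairs, so the block is no paired design. A slide block could not be fitted, as 1 slide held all 4 arrays, and normexp on the mean signal was not run.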
